A study of Mus musculus with 9 samples.

Results

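Homeostatic microglia were examined in the mouse-derived tumor microenvironment (TME) of glioblastoma (GBM) patient-derived orthotopic xenografts (PDOXs) and in normal nude mouse brain. Drop-seq, a droplet method that tags the transcripts of each cell on a barcoded bead, gave unique molecular identifier (UMI) counts per gene and cell barcode. A barcode counted as a homeostatic microglia when it had at least 200 genes, at most 30% mitochondrial UMIs and UMIs of at least 2 of the 6 markers P2ry12, P2ry13, Tmem119, Gpr34, Siglech and Selplg. It also had to lack UMIs of 7 genes of activated or other myeloid cells (Spp1, Cst7, Lpl, Itgax, Ch25h, Mrc1 and Ly6c2) and to hold at most 1 of Cldn5, Slc1a2, Rgs5 and Pdgfra, which mark endothelial cells, astrocytes, pericytes and oligodendrocyte progenitors. Of 33998 barcodes, 15391 passed the filters on genes and mitochondrial UMIs, and 1345 of these met the whole rule. The members were thus chosen by the UMI counts of these 17 genes, which are described here and never tested.

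The tumor-free control was 1 normal nude mouse brain (Nu-NB). There were 7 PDOXs without treatment, named P3, P8, P13, T16, T101, T192 and T233, and 1 P3 PDOX whose host was given temozolomide (P3TMZ), an alkylating chemotherapy. All hosts lacked a functional thymus and therefore mature T cells. The tumors were human and were grown to endpoint, so that only the host cells around them were of the mouse, and T192 and T233 came from tumors of the same patient. Mouse cells were isolated by FACS for P8 and Nu-NB and by MACS depletion for the remaining samples.

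Microglia are macrophages that settle in the brain during embryonic development and maintain themselves there. In the healthy brain they survey their surroundings with purinergic receptors such as P2ry12, hold the fractalkine receptor Cx3cr1 and depend on TGF-beta signaling and on transcription factors such as Sall1 and the Mef2 family for this state. Near tumors, plaques or lesions they lose part of this program and take up genes of phagocytosis, lipid handling and antigen presentation, of which Spp1, Cst7, Lpl and Itgax are known examples.

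The number of homeostatic cells was 597 in Nu-NB, 59 in P8, 31 in T101, 37 in T192, 15 in T233, 27 in P3, 173 in T16, 338 in P13 and 68 in P3TMZ. They carried a median of 513 to 1062.5 UMIs per cell in the PDOXs and 519 in Nu-NB, and their summed libraries held from 11507 UMIs in T233 to 514904 in P13. No barcode of a homeostatic cell occurred in more than 1 sample, while 20 of the other kept barcodes did. Mitochondrial transcripts took 4.30% of their UMIs in the normal brain and 4.95% in P8, against 7.20 to 11.4% in the untreated PDOXs depleted by MACS and 6.87% in P3TMZ.

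The label was checked with genes that the rule did not use. In every PDOX at least 98.3% of the homeostatic cells held 2 or more of 14 pan-myeloid genes. Of all kept cells of the PDOXs, 6180 of 12763 did so, and 1531 of 1905 in T192, so that this check is a weak one. Border-associated macrophage genes besides Mrc1 summed to 0.0 to 113 CPM (the UMIs of a gene in the summed cells of a sample, scaled to a common library size) in the PDOXs and 56.2 CPM in Nu-NB, and monocyte genes besides Ly6c2 to 0.0 to 229 CPM and 24.1 CPM. The cells at the edge of the rule differed from those inside it. Kept cells with exactly 1 marker had a median of 400.4 CPM of Cx3cr1 and 379.7 CPM of C1qa, a chain of complement C1q, over the 7 PDOXs. Homeostatic cells with exactly 2 markers had 2446 and 1941 CPM over 6 PDOXs, without T233, which had 5 such cells. The astrocyte transporter Slc1a3 was at a median of 1178 CPM in the first and 706 CPM in the second.

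Homeostatic microglia were the common state of microglia in the normal brain and a minor one in most PDOXs. They made up 32.0% of the cells kept from Nu-NB (exact 95% interval, 29.8 to 34.1%) and a median of 2.41% over the 7 PDOXs, from 1.54% in T233 to 11.6% in P13. In P8, which was sorted by FACS like Nu-NB, the share was 2.41%. Of the cells with at least 2 homeostatic markers that met the other limits, 96.3% had no UMI of the activation genes in Nu-NB, against a median of 19.6% in the PDOXs. T16 and P13 stood apart with 61.1 and 54.3%, and T192 and T233 had 6.62 and 5.66%. Cells with 2 or more of the 5 activation genes Spp1, Cst7, Lpl, Itgax and Ch25h, called activated microglia here, took 0.806% (5 cells) of this population in Nu-NB, against 20.1 to 86.8% in the PDOXs. These shares are made from the genes of the rule and were not tested. The sort and the release of gene symbols split the samples in the same way and cannot be told apart, and intervals cover counting error only.

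**Figure D1:**
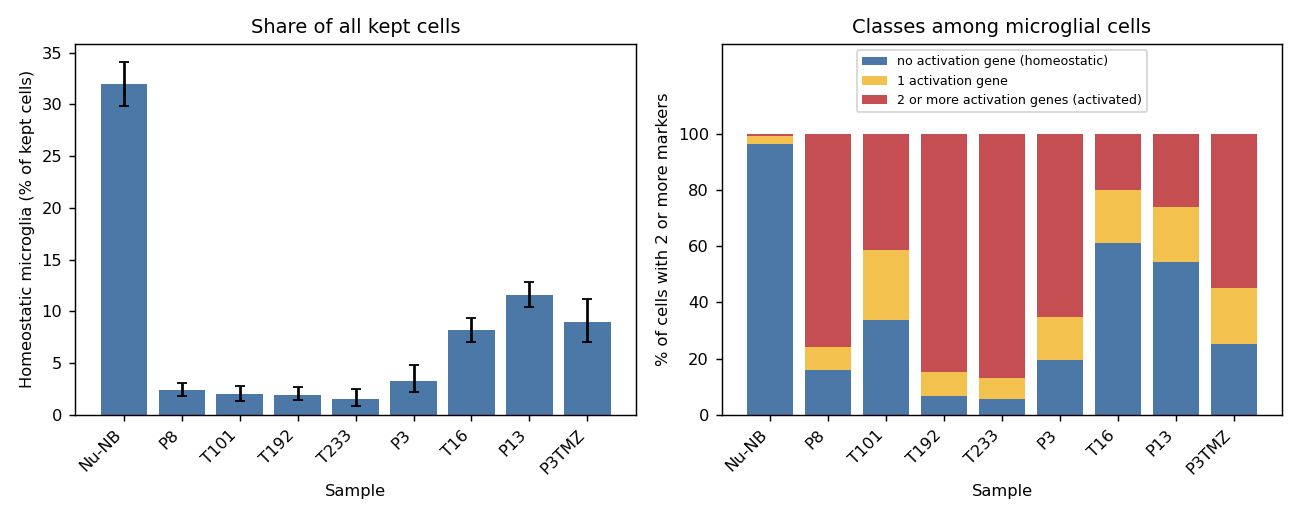
Left, homeostatic microglia as % of kept cells in each sample, with 95% exact binomial intervals as error bars. Right, microglial cells with at least 2 homeostatic markers, divided in % by how many of the 5 activation genes had a UMI: Nu-NB holds 96.3% cells without any, T16 and P13 over 50%, and T192 and T233 under 10%.

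A cell with few UMIs lacks activation genes more easily, so the shares were also taken at equal depth and among deeper cells. Cells with at least 500 UMIs were thinned to 500 and shallower ones left out, which kept 10780 of 15391 cells. This kept 1041 of 1868 cells in Nu-NB and 2873 of 2916 in P13. The rule was applied again, so that cells whose activation UMIs were removed could enter the class. Homeostatic cells then took 97.0% of the microglial population of Nu-NB, and in the PDOXs 8.26 to 80.7% (median 35.2%). P13 was highest with 80.7%, and T101 had 56.7% (95% interval 37.4 to 74.5%), next to 64.1% in T16. Among cells with at least 1000 UMIs the values were 88.2%, 1.27 to 43.9% and 6.49%. All 7 PDOXs lay below Nu-NB in both settings, and the level within PDOXs moved with the depth. Free RNA also gives UMIs to cells that do not make a transcript. In thinned endothelial-type cells of the PDOXs, which should lack both genes, a few cells held Spp1 (0.935 to 8.0%) and at most 2.0% held P2ry12. This class was limited to cells with fewer than 2 pan-myeloid genes, so that its shares may understate free myeloid RNA.

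A part of the genes that define microglia was at lower levels in the homeostatic cells of PDOXs than in those of Nu-NB. The comparison asks whether microglia that still look homeostatic next to a tumor differ from those of a normal brain. Activated cells were rarer in Nu-NB than in any PDOX. Shallow ones could pass the rule when their activation genes went uncounted, and their part in the differences below was not tested. A gene was tested when it passed a filter on low counts, which 1 sample with a high level was enough to pass, so that counts and medians over tested genes are descriptions and lean to genes that differ. Of 39 listed genes of microglia identity 29 were tested. Of these, 0 passed the test with edgeR (false discovery rate, FDR, at most 0.01 and an absolute log2 fold change of at least 1), 11 were lower in all 7 PDOXs than in Nu-NB and 2 were higher in all 7 (Cd81 and Ctsl). Over all 1034 genes tested, 19.2% lay below Nu-NB in all 7 PDOXs and 16.4% above it. The median log2 fold change of the list was -0.56 and that of all tested genes -0.01. All 39 genes summed to 89570 CPM in Nu-NB, within the 66007 to 139819 CPM of the PDOXs (median 95943).

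Among the surface receptors, Cx3cr1 was at 6537 CPM in Nu-NB and at 1800 to 4835 CPM in the PDOXs with a median of 2631 CPM. The groups did not overlap and P8 was the highest PDOX, but the difference did not pass the test (log2 fold change -1.22 ± 0.49 SE, FDR 0.201). Entpd1 (CD39), which breaks down extracellular ATP to the ligands and end products that purinergic receptors sense, was at 1035 CPM in Nu-NB and 56.3 to 394.7 CPM in the PDOXs (median 248.1). Its log2 fold change of -2.07 ± 0.45 SE had an FDR of 0.066 and also missed the threshold, which it passed with P8 left out (log2 fold change -2.36, FDR 0.0047). Of the markers used by the rule, P2ry12 was at 4174 CPM in Nu-NB and 1898 to 3770 CPM in the PDOXs, and Tmem119 at 941 and 324.2 to 686.9 CPM, which is given as a description. Siglech, a lectin, went the other way in part, with 1898 CPM in Nu-NB and values from 945.8 to 2198 CPM in the PDOXs.

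The identity genes Cst3 and Sparc and the lysosome gene Ctss overlapped between the groups. The lysosomal protease gene Ctss was at 11080 CPM in Nu-NB and 5576 to 15676 CPM in the PDOXs. Cst3, which encodes the secreted protease inhibitor cystatin C, was at 46979 CPM in Nu-NB and 42731 to 103978 CPM in the PDOXs. Neither Ctss nor Cst3 separated the 2 groups. Sparc, a matricellular protein made by microglia, was at 4971 and 3189 to 5739 CPM.

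Of 20 transcription factors of microglia 14 were tested. Of these, 0 passed the test, 7 were below Nu-NB in all 7 PDOXs (among them Maf, Mef2a, Mef2c, Sall1, Sox4 and Tcf4) and 2 were above it in all 7 (Cebpb and Klf2), against 19.2 and 16.4% of all tested genes, with a median log2 fold change of -0.64. Maf had 1457 CPM in Nu-NB and 224.6 to 688.4 CPM in the PDOXs (log2 fold change -1.73 ± 0.53 SE, FDR 0.117). Mef2a was at 1053 CPM in Nu-NB and 337.6 to 915.8 CPM in the PDOXs, and Mef2c at 1332 and 823.9 to 1282 CPM, close to the brain in P8 and T192. The summed level of the 20 listed factors was 8185 CPM in Nu-NB and 4051 to 5402 CPM in the PDOXs. Sall1 was at 350.3 CPM in Nu-NB and at most 197.4 CPM in the PDOXs, with no UMI in the 37 cells of T192 (exact upper limit 9.49%) and the 15 cells of T233 (21.8%), limits that hold for cells with a UMI and not for cells that express the gene.

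Few genes of the TGF-beta pathway were tested. Tgfbr1, the type I receptor, was at 1685 CPM in Nu-NB and between 450.1 and 1677 CPM in the PDOXs, where P8 had the highest value and was almost level with Nu-NB. Pmepa1, a target and inhibitor of the pathway, was at 799.5 CPM in Nu-NB and 168.8 to 404.3 CPM in the PDOXs (log2 fold change -1.58 ± 0.44 SE, FDR 0.111). Of 16 listed genes 3 were tested, 0 passed the test and 2 were below Nu-NB in all 7 PDOXs (Tgfbr1 and Pmepa1), and the 16 summed to 4045 CPM in Nu-NB and 1575 to 3404 CPM in the PDOXs. The other genes with the smallest p on this side that missed the threshold were Ssh2 (655.1 against 91.6 to 271.4 CPM), Il7r (534.8 against 56.3 to 283.7 CPM) and Plxdc2 (1155 against 274.8 to 539.0 CPM).

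**Figure D2:**
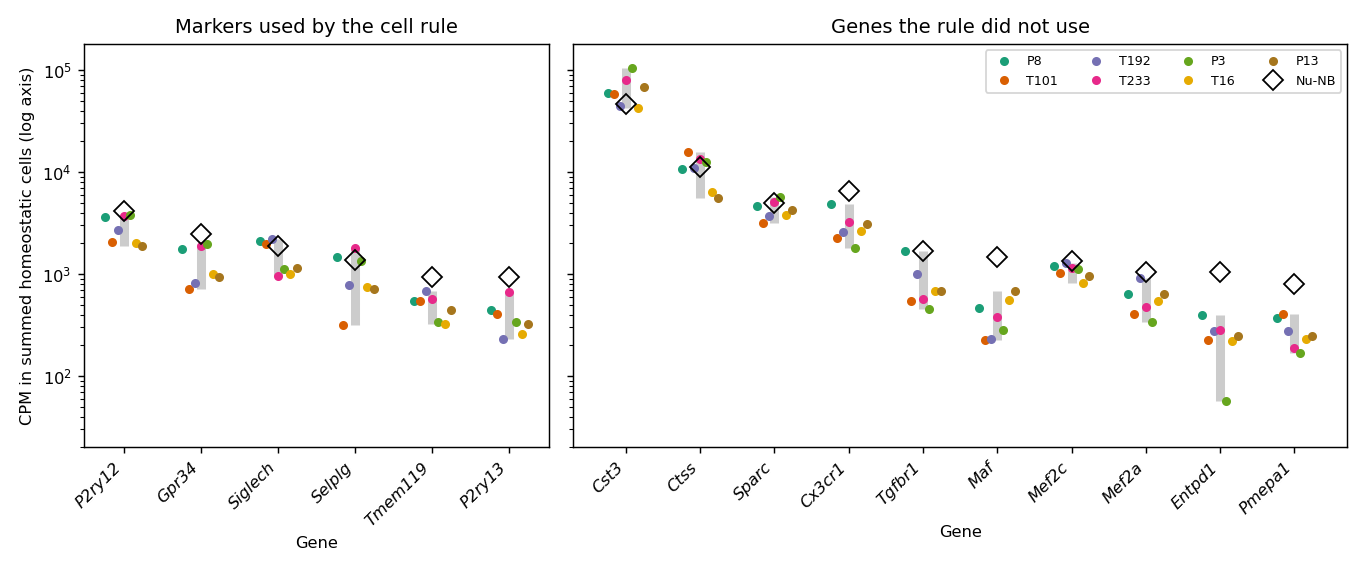
CPM in the summed homeostatic cells of each sample on a log axis, for the 6 markers of the rule (left) and 10 genes that it did not use (right). Dots are the 7 PDOXs, the grey bar is their range and the open diamond is Nu-NB, which lies above every PDOX for Cx3cr1, Tgfbr1, Maf, Mef2a, Mef2c, Entpd1 and Pmepa1 and inside their range for Cst3, Ctss and Sparc.

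Cxcl13 was the 1 gene that rose with edgeR in homeostatic microglia of PDOXs against those of the normal brain. It encodes a chemokine that attracts B cells through the receptor CXCR5, and lies on chromosome 5 (GRCm38 chr5:95956939-95961068). No UMI of Cxcl13 was counted in the 597 homeostatic cells of Nu-NB (0.0% of cells, exact upper limit 0.616%). The level was 937.4 CPM in P8, 3414 in T101, 2244 in T192, 5202 in T233, 2307 in P3, 1483 in T16 and 1108 in P13, so that all 7 PDOXs lay above Nu-NB. The PDOX mean of 2385 ± 1497 CPM (SD, n = 7) was at least 297-fold higher than the level that 3 UMIs in the Nu-NB library would give. The fitted log2 fold change was 11.27 ± 1.53 SE (FDR 9.8e-04), which depends on the prior count because Nu-NB is at 0, and 1 of 1034 tested genes (0.0967%) was called as higher. DESeq2 called 16 genes as higher, among them Cxcl13, Ccl3, Ccl4, Ccl12, Fth1 and Vim, and 0 as lower.

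The level of Cxcl13 in P8 came mainly from 1 cell, which held 33 of 38 UMIs. In the other PDOXs, 25.4 to 46.7% of homeostatic cells had at least 1 UMI, and in T16 the transcript was found in 44 of 173 cells and in P13 in 88 of 338. After thinning to 500 UMIs, Cxcl13 was found in 7.84% of homeostatic cells in P8 (4 of 51 cells) and in 6 of 12 cells in T233. In the other 5 PDOXs it was found in 15.9 to 47.4%. The rule was applied again after thinning, so that cells with activation genes at full depth could enter. At full depth 3 of 59 homeostatic cells of P8 held Cxcl13. Endothelial-type cells of the same samples, which should lack it, had it in 1.06 to 8.49%. These cells were picked for few pan-myeloid genes, so that this background may be too low. In P8 the homeostatic share was based on 4 cells and its interval of 2.18 to 18.9% overlapped that of the endothelial-type cells. What part activated cells that passed the rule have in the level of Cxcl13 was not tested.

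The CC chemokine genes Ccl3, Ccl4 and Ccl12 were higher in every PDOX than in Nu-NB, without passing the test in edgeR. Ccl3 was at 18.7 CPM in Nu-NB and 74.0 to 1463 CPM in the PDOXs (median 808.5, log2 fold change 5.27 ± 1.25 SE, FDR 0.070). Ccl4, like Ccl3 a macrophage inflammatory protein, was at 34.8 CPM in Nu-NB and 98.7 to 1707 CPM in the PDOXs (median 1410, log2 fold change 4.96 ± 1.20 SE, FDR 0.070). The annotated spans of both genes on chromosome 11 overlap, so that their reads may be split between them. Ccl12, a monocyte chemoattractant, was at 26.7 CPM in Nu-NB and 191.4 to 988.2 CPM in the PDOXs (median 481.7, log2 fold change 4.14 ± 0.85 SE, FDR 0.047).

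P8 was the lowest PDOX for Ccl3 and Ccl4. With P8 left out both genes passed the test (FDR 0.0038 and 0.0021). P8 is the PDOX that was sorted by FACS like Nu-NB, so that without it tumor and isolation method cannot be told apart, for Entpd1 too. Thinned homeostatic cells held Ccl4 in 25.0 to 41.2% of cells in the 6 PDOXs other than P8, in 3.92% in P8 and in 1.37% in Nu-NB, against 0.651 to 2.83% of endothelial-type cells in the PDOXs. The limits given for Cxcl13 in both thinned cell types hold here too. Ccrl2, an atypical chemerin receptor, was at 8.02 CPM in Nu-NB and 74.0 to 763.6 CPM in the PDOXs (FDR 0.070). Of 21 listed inflammatory cytokine and chemokine genes 9 were tested, 0 passed the test and 5 were above Nu-NB in all 7 PDOXs (Ccl3, Ccl4, Ccl12, Il1b and Nfkbia), against 16.4% of all tested genes. Ccl3, Ccl4 and Ccl12 had 7, 13 and 10 UMIs in Nu-NB. All 21 genes summed to 1003 CPM in Nu-NB and 2097 to 7006 CPM in the PDOXs.

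**Figure D3:**
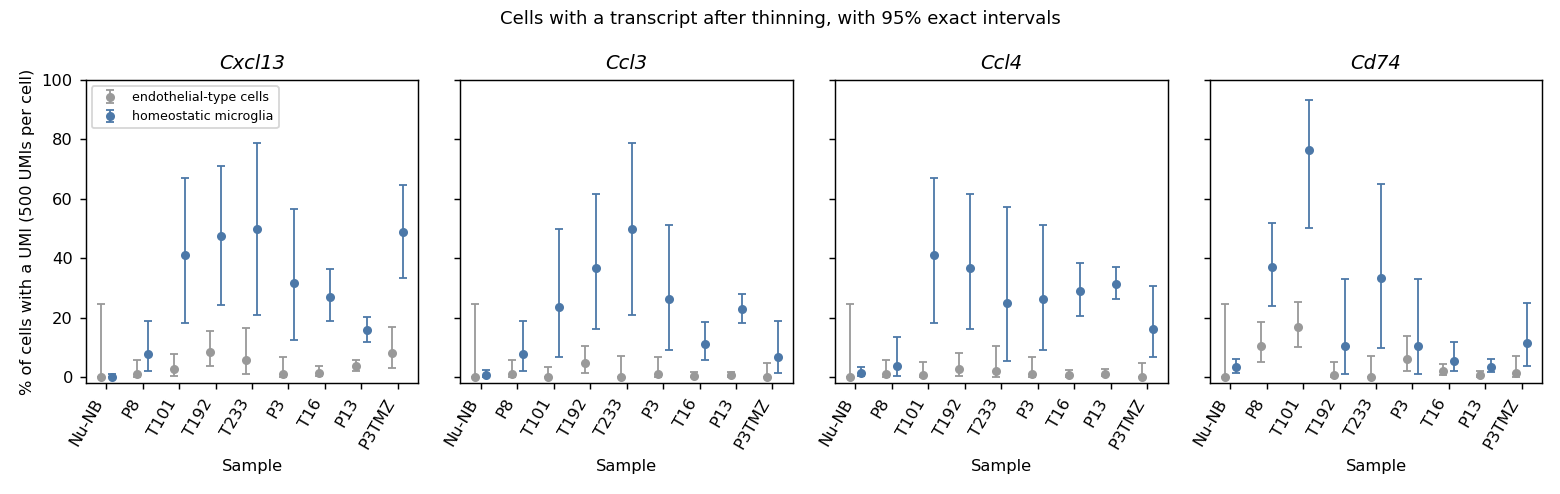
Share of cells with at least 1 UMI of Cxcl13, Ccl3, Ccl4 and Cd74 after thinning to 500 UMIs per cell, in % with 95% exact binomial intervals, for homeostatic microglia (blue) and endothelial-type cells (grey) of each sample. Homeostatic cells of the PDOXs other than P8 hold Cxcl13 in at least 15.9% of cells, Nu-NB in 0.0%, and Cd74 stands out in T101 with 76.5%. The rule was applied again after thinning, so that homeostatic microglia here may include cells with activation genes at full depth.

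Activated cells without a counted activation gene could pass the rule, and their part in the values below was not tested. The rule had removed cells with Spp1, Cst7, Lpl, Itgax or Ch25h, which are genes of disease-associated microglia. Of 21 other tested genes of this state, 1 rose (Cxcl13), 12 lay above Nu-NB in all 7 PDOXs and 0 below, against 16.4 and 19.2% of all tested genes, with a median log2 fold change of 1.27. Fth1, the heavy chain of the iron store ferritin, was at 558.8 CPM in Nu-NB and 1727 to 5705 CPM in the PDOXs (median 3972, log2 fold change 2.66 ± 0.73 SE, FDR 0.111). Apoe, a lipid carrier, was at 4102 CPM in Nu-NB and 4540 to 19389 CPM in the PDOXs (log2 fold change 1.19 ± 0.74 SE, FDR 0.383). P13, P3 and T16 were close to Nu-NB for Apoe, while T233, T192 and T101 were highest. In T101, 185 of the 313 UMIs of Apoe lay in 1 cell, and without it the level was 6376 CPM, below the 7327 CPM of P8. Without the cell with the most Apoe, P3 was at 3752 CPM, below Nu-NB.

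Among the proteases and lysozyme, Lyz2 was at 109.6 CPM in Nu-NB and 324.6 to 1135 CPM in the PDOXs (FDR 0.116), and the cathepsin gene Ctsd at 2321 and 3349 to 10309 CPM (FDR 0.278). Of 22 tested lysosome genes, 0 passed the test, 9 were above Nu-NB in all 7 PDOXs and 1 below (16.4 and 19.2% over all tested genes), with a median log2 fold change of 0.65. Of 17 tested complement and phagocytic receptor genes, 0 passed, 3 were above (C1qc, Tyrobp and Fcer1g) and 3 below (Itgam, Mertk and Sirpa) Nu-NB in all 7 PDOXs, which is near the 16.4 and 19.2% over all tested genes, and the median was 0.34. Tyrobp, the signaling adaptor of Trem2, was at 681.8 CPM in Nu-NB and 935.5 to 2554 CPM in the PDOXs.

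Antigen presentation genes varied widely between PDOXs. Of 18 listed genes 9 were tested, 0 passed the test and 4 were above Nu-NB in all 7 PDOXs (H2-Ab1, H2-D1, H2-K1 and B2m), against 16.4% of all tested genes. All 18 genes summed to 3024 CPM in Nu-NB and 5331 to 48736 CPM in the PDOXs. B2m, the light chain of MHC class I, was at 1802 CPM in Nu-NB and 2764 to 11768 CPM in the PDOXs. The MHC class II chaperone Cd74 was at 64.2 CPM in Nu-NB, 8445 CPM in T101, 2365 CPM in T233, 863.4 CPM in P8 and between 56.3 and 595.3 CPM in the other 4 PDOXs, of which P3 lay below Nu-NB. T101 was thus far above the others, and its 31 homeostatic cells also had 7232 CPM of H2-Ab1, where the others had 56.3 to 283.7 CPM.

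Of 25 interferon-stimulated genes 8 were tested, 0 passed the test and 4 were above Nu-NB in all 7 PDOXs (Ifit2, Ifitm3, Ifi27l2a and Lgals3bp), against the same 16.4%. All 25 genes summed to 735.3 CPM in Nu-NB and 1011 to 6648 CPM in the PDOXs. Ifitm3, a membrane protein that hinders virus entry, was at 10.7 CPM in Nu-NB and 24.7 to 595.3 CPM in the PDOXs (FDR 0.076), and Ifi27l2a at 26.7 and 49.3 to 988.2 CPM. For both genes P8 was the lowest PDOX. The level of Ifitm3 in P8 was 1 UMI in 59 cells, against 4 UMIs in the 597 cells of Nu-NB. Immediate early genes, which answer to cell stimulation within minutes and also to enzymatic dissociation, had 4 of 16 tested genes above Nu-NB in all 7 PDOXs and 1 below, where 16.4 and 19.2% of all tested genes were. Jun was at 3727 CPM in Nu-NB and 1850 to 6470 CPM in the PDOXs, without a separation of the groups.

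Of the 29 tested genes that the study names for myeloid cells, 1 rose, 9 were above and 6 below Nu-NB in all 7 PDOXs, of which the share below is near the 19.2% over all tested genes. The study chose these genes on the same samples, so that this count is not independent evidence of a direction. The lists of purine and lipid sensing receptors, lipid and cholesterol handling, glycolysis and hypoxia, cell cycle and checkpoint genes had 1 to 4 tested genes each, of which 0 passed.

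**Figure D4:**
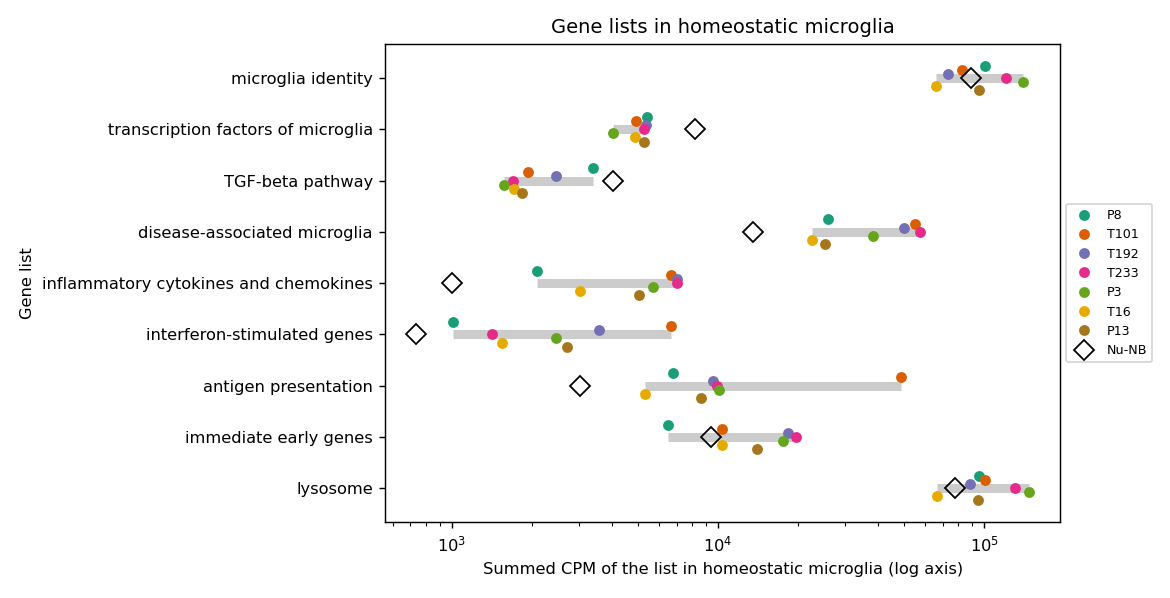
Summed CPM of 9 gene lists in the homeostatic microglia of each sample, on a log axis, without the genes of the cell rule. Dots are the 7 PDOXs, the grey bar is their range and the open diamond is Nu-NB, which lies above all PDOXs for transcription factors and the TGF-beta pathway, below all for disease-associated, cytokine, interferon and antigen presentation genes, and within their range for the other 3 lists.

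The low number of calls does not show that the groups were alike. With 1 normal brain, the fit can only borrow the spread seen among PDOXs. On simulated data with 1309 genes edgeR recovered 7.5% of 8-fold changes in this design and DESeq2 28.5%. The simulation assumed the same spread for every gene, not taken from these data, and counted genes lost to the filter as missed. These rates depend on that setting. At an unadjusted p under 0.05, 200 of the 1034 genes differed.

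The gene that fell was Hbb-bs, a beta-globin of red cells (1 of 1034 tested, 0.0967%, log2 fold change -6.18 ± 1.04 SE, FDR 0.0071). It was at 598.9 CPM in Nu-NB and 0.0 to 94.6 CPM in the PDOXs, and 183 of the 224 UMIs in Nu-NB lay in 1 cell, without which Nu-NB was at 109.8 CPM. Hbb-bs was not called with DESeq2, after thinning or without T16 or P13, and it was not tested, being below the filter on low counts, in cells free of Cldn5, Slc1a2, Rgs5 and Pdgfra, with at least 3 markers or in cells of at least 1000 UMIs. Other globin genes are nearly identical to it, and the authors' counting may split their reads. Globin and other red cell genes are no microglial transcripts, and what part free or engulfed RNA has in this value was not tested.

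Transcripts of other brain cells were present in the homeostatic cells and differed between samples. The 9 listed endothelial genes besides Cldn5 summed to 32.1 CPM in Nu-NB and 74.0 to 2148 CPM in the PDOXs, highest in P13, T16 and T192. The 12 astrocyte genes summed to 4663 CPM in Nu-NB and 731 to 8581 CPM in the PDOXs, and the 8 mural cell genes besides Rgs5 to 40.1 and 24.7 to 450.1 CPM. In Nu-NB 82.7% of homeostatic cells had no UMI of Cldn5, Slc1a2, Rgs5 or Pdgfra, against 51.5% in P13 and up to 91.5% in the other PDOXs. With only such cells, Cxcl13 was the 1 gene called of 906 tested. Of 10 tested astrocyte genes and 2 tested endothelial genes 0 passed. The lists for neutrophils, lymphocytes and the oligodendrocyte lineage had 1 or 2 tested genes each, of which 0 passed.

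Homeostatic and activated microglia of the same PDOX were then set side by side. Both classes were cut from the expression of these cells, so that the values below describe the classes and are no test, even for genes outside the rule. Activated cells were also deeper (medians of 1301.5 to 4347 UMIs). In a fit with the sample as a block, 15 of 3058 genes (0.491%) were past the threshold as higher in homeostatic cells and 86 (2.81%) as lower, which is read here as a description only. Of 28 disease-associated genes 19 were past it as lower, with a median log2 difference of -1.18, while 3 of 36 identity genes were past it as higher (Cst3, Adgrg1 and Slco2b1), with a median of 0.37.

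Of 10 lipid and cholesterol handling genes, 3 were past the threshold as lower in homeostatic cells (Apoe, Apoc1 and Lipa), and of 19 complement and phagocytic receptor genes 5 (C3ar1, Itgb2, Tyrobp, Axl and Cd14), with 0 past it as higher in either list. The median log2 differences were -0.81 and -0.29, against -0.05 over all tested genes. Apoe was at 4540 to 19389 CPM in homeostatic and 12113 to 46889 CPM in activated cells of the PDOXs, and lower in homeostatic cells in all 7. Lyz2 was at 324.6 to 1135 and 857 to 4411 CPM, and Cybb, the NADPH oxidase subunit of phagocytes, at 0.0 to 183.2 and 143.7 to 568.2 CPM. Other genes with large differences on this side were Lilrb4a, an inhibitory receptor, the growth factor gene Igf1, Ms4a6c, the actin-capping gene Capg, the chemokine genes Ccl6 and Cxcl2, Fn1 (fibronectin), Bcl2a1a, a survival gene of the Bcl2 family, and Cspg4.

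Cst3 was at 42731 to 103978 CPM in homeostatic and 18594 to 32095 CPM in activated cells, higher in homeostatic cells in all 7 PDOXs. Jun was at 1850 to 6470 and 828.0 to 1974 CPM, and the interleukin-7 receptor gene Il7r at 56.3 to 283.7 and 16.7 to 122.4 CPM. Slc39a10, a zinc transporter, Numb, a regulator of Notch signaling, and Ly6a were also on this side. Ly6a is also a gene of endothelial cells, and Ly6c1, another one, was past the threshold too.

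The chemokine genes that separated PDOXs from Nu-NB had overlapping ranges in the 2 classes. Ccl4 was at 98.7 to 1707 CPM in homeostatic and 799.3 to 2269 CPM in activated cells, Ccl3 at 74.0 to 1463 and 537.7 to 1766 CPM, and Ccl12 at 191.4 to 988.2 and 73.1 to 1045 CPM. Cxcl13 was at 937.4 to 5202 CPM in homeostatic and 876.7 to 5758 CPM in activated cells and was higher in homeostatic cells in 2 of the 7 PDOXs. Of these 4 genes, Cxcl13 was past the threshold, as lower in homeostatic cells, with a log2 difference of -1.04 ± 0.18 SE and means of 2385 and 4135 CPM.

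Cells with exactly 1 activation gene lay between the 2 classes in most PDOXs. The summed microglia identity genes had a median of 95943 CPM with none of the activation genes, 69547 CPM with 1 and 49632 CPM with 2 or more. Disease-associated genes, without those of the rule, had medians of 38204, 58335 and 96028 CPM, and lipid genes of 8511, 16875 and 29192 CPM. Immediate early genes had medians of 14025, 10386 and 9090 CPM. Since a cell with more UMIs shows activation genes more readily, the part of depth in these steps was not tested.

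**Figure D5:**
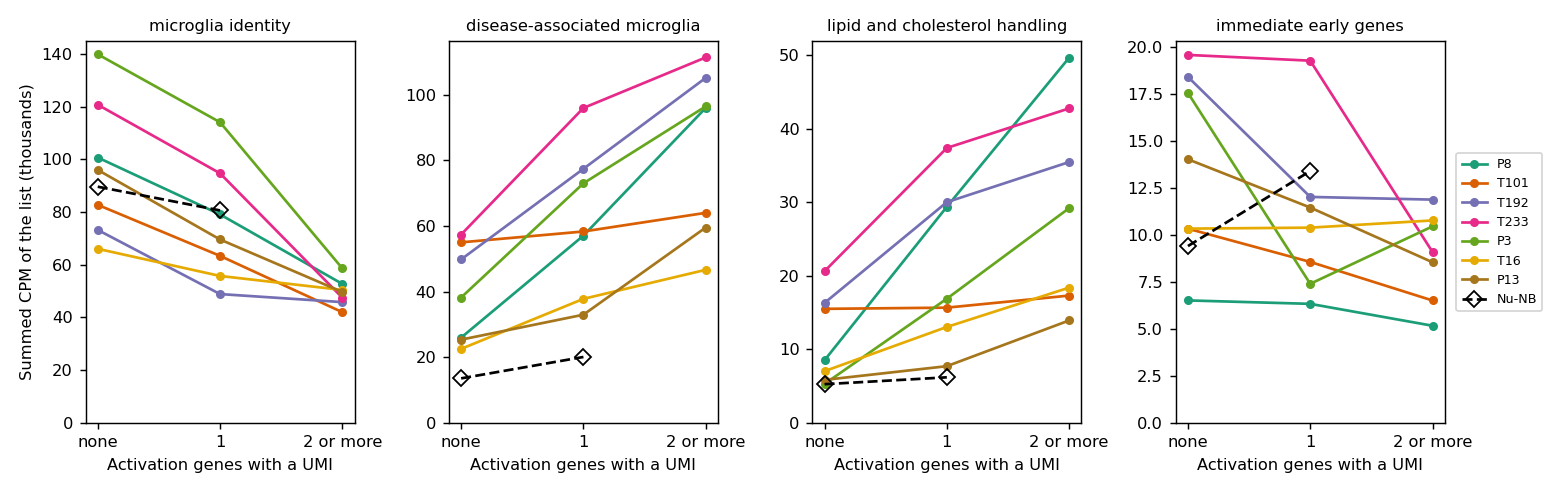
Summed CPM (axis in units of 1000) of 4 gene lists, without the genes of the rule, in microglial cells with none, 1 or 2 or more activation genes. Each colored line is 1 PDOX and the dashed line is Nu-NB, which has too few cells for the last class, and identity genes go down and disease-associated genes up along the classes in all 7 PDOXs.

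P3TMZ and P3 differed in some genes of homeostatic microglia, with 1 sample on either side and no replicate check. They had 68 and 27 homeostatic cells, or 8.95% (95% exact binomial interval 7.01 to 11.2%) and 3.30% (2.19 to 4.77%) of kept cells. Of the microglia with at least 2 markers they took 25.3% (20.2 to 30.9%) and 19.6% (13.3 to 27.2%), and after thinning 36.4 and 35.2%, so that the intervals overlapped in this population. Of 939 genes with enough UMIs, 26 (2.77%) were at least 2-fold higher in P3TMZ and 33 (3.51%) lower, with a 95% counting interval that left out 1. Apoe was at 14122 CPM in P3TMZ and 4951 CPM in P3, a ratio of 2.85 (2.28 to 3.61), and Cd74 had 29 UMIs against 1, a ratio of 12.1 (2.01 to 494.7). Cxcl13 was at 3055 and 2307 CPM.

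The chemokine genes Ccl3 and Ccl4 were lower in P3TMZ. Ccl3 was at 235.0 CPM in P3TMZ and 1463 CPM in P3, a ratio of 0.161 (0.069 to 0.344) from 10 and 26 UMIs, and Ccl4 at 587.4 and 1688 CPM, a ratio of 0.348 (0.196 to 0.612). In P3, 1 cell held 11 of the 26 UMIs of Ccl3 and 1 cell 11 of the 30 of Ccl4, without which P3 was at 870.0 and 1112 CPM, and the level of Ccl4 in P3TMZ was then less than 2-fold lower. Of the immediate early genes, Atf3 was lower (305.5 against 731.4 CPM) and Fosb higher (563.9 against 112.5 CPM) in P3TMZ. Ttr, which encodes transthyretin of the choroid plexus, had a ratio of 0.119, and 709 of the 753 UMIs in P3 lay in 1 cell. These ratios compare 2 libraries and cannot be told apart from other differences between the 2 mice.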

How the data were processed

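The authors demultiplexed Drop-seq reads with bcl2fastq 2.0 and mapped them with STAR to the human and mouse (GRCm38) genomes. They deposited, for 9 samples, raw UMI counts per gene and mouse-derived barcode, without normalization, and totals per file were 1294068 to 8410580. The annotation release is not given in the sources used here. Both symbol releases were joined through RefSeq synonyms (593 pairs), and the 12954 genes in every file were used. Results of some genes are not reported here, and the tests and list counts keep them. No doublet caller was run and no cells were left out as doublets. UMIs of the cells of a class were summed per sample where it had at least 10 cells, and given as CPM of these genes. edgeR 4.0.16 (quasi-likelihood, TMM, filterByExpr, Benjamini-Hochberg) compared the sums at FDR at most 0.01 and an absolute log2 fold change of at least 1, on R 4.3.3, without the 17 genes of the rule. DESeq2 1.42.0 was an alternative. Both were checked on simulated data. P-values measure the spread between PDOXs, each a separate tumor. Endothelial-type cells held at least 3 endothelial genes. For P3TMZ against P3, genes with at least 10 UMIs in both samples together were used. Gene positions are those of RefSeq for GRCm38. Members and gene lists were chosen with earlier results of these data known. Named genes are those of the rule, per list up to 4 members with the highest mean CPM and any past the threshold, and per comparison up to 10 genes a direction, ranked by log2 fold change, past the threshold, at 50 CPM or more and without overlap between groups (for homeostatic against activated, the same direction in every PDOX), or the 5 with the smallest p where fewer than 5 passed. The limits of 1000 UMIs per cell and of 5% Ttr, and leaving out the cell with the most UMIs of Apoe, Ccl3, Ccl4 or Hbb-bs, were chosen after seeing the data. Genes named for other reasons (Ttr, Ly6c1, Atf3, Fosb, and list members named as past the threshold or without overlap) were chosen after their values were seen.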

Additional observations from a re-analysis of the deposited data

Results flagged for a closer look

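Of 39 values checked over the 7 PDOXs with Dixon's test, 4 had a sample far from the others, where chance flags about 1 in 20. T101 stood apart in the summed antigen presentation genes with 48736 CPM, where the next PDOX had 10071 CPM and the lowest 5331 CPM. In T101, 19 of the 31 homeostatic cells held at least 5 UMIs of MHC class II genes. All samples together had 31 such cells, with 0 to 5 in each of the others. P3 stood apart in the summed transcription factors of microglia with 4051 CPM, where the next had 4895 CPM and the highest 5402 CPM, from 27 cells. T233 stood apart in Hbb-bs and in the summed red cell genes with 94.6 CPM each, which was 1 UMI of Hbb-bs in 15 cells.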

How the results depend on the processing

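Between PDOX and Nu-NB, 2 genes were called. The number was 16 with DESeq2 (16 higher, 0 lower), 29 without a filter on low counts (17 and 12), 14 with cells of at least 1000 UMIs (7 and 7), which left 3 samples (Nu-NB, T16 and P13), and 1 with thinning to 500 UMIs, with cells free of the 4 other-cell genes or with at least 3 markers. Leaving out 1 PDOX gave 1 to 9 genes, 9 without P8 and 1 without T16 or P13. Cxcl13 was called in every one of these fits. Hbb-bs was not called with DESeq2, with thinning or without T16 or P13, and was below the filter and not tested in cells free of the 4 genes, with at least 3 markers or in cells of at least 1000 UMIs. Between homeostatic and activated cells, 15 genes were past the threshold as higher and 86 as lower. In all, 44 were past it with DESeq2, 158 without the filter, 9 of 175 with thinning, 48 in cells free of the 4 genes, 6 without the sample block, 9 with cells of at least 1000 UMIs (2 PDOXs left) and 38 (without P13) to 128 (without T101) with 1 PDOX left out. Of the 44 and 38 genes, 42 and 36 were among those 15 and 86. The homeostatic share of pan-myeloid cells was 71.0% in Nu-NB and a median of 6.49% in PDOXs, and the share of kept cells in Nu-NB was 28.0% with thinning, 24.3% with at least 3 markers and 24.2% in cells of at least 1000 UMIs. With 1 PDOX left out the PDOX median was 2.19 to 2.86%. For P3TMZ against P3, 59 genes were past 2-fold and 28 of 381 with thinning. The causes of these changes were not tested, apart from fewer cells, UMIs or genes where a setting removed them. No direction was reversed in these fits, but without its cell with the most Apoe, P3 was at 3752 CPM, below Nu-NB. The number of cells, 15 to 59 in 5 of the PDOXs, and the single normal brain limit the precision. No paired analysis was possible for PDOX against Nu-NB because the labels give no replicate numbers shared between groups.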

Other observations

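UMIs of cell cycle genes were counted in homeostatic microglia of some PDOXs. Mki67, a marker of proliferating cells, was found in 43 of 338 cells of P13 (12.7%, 95% exact binomial interval 9.36 to 16.8%), in 9 of 173 cells of T16 (5.20%, 2.41 to 9.65%) and in 6 of 597 cells of Nu-NB (1.01%, 0.370 to 2.17%). In the smaller sets it was found in 2 of 15 cells of T233 (13.3%), 2 of 31 of T101, 2 of 59 of P8, 1 of 37 of T192 and 0 of 27 of P3 (exact upper limit 12.8% of cells with a UMI). Top2a, a topoisomerase of dividing cells, was found in 54 cells of P13, 12 of T16 and 6 of Nu-NB. P13 cells were deeper than those of Nu-NB (median 1062.5 against 519 UMIs), so the shares were also taken after thinning to 500 UMIs, with the rule applied again. Mki67 was then found in 7.32% of homeostatic cells of P13 (4.70 to 10.8%), 0.935% of T16 and 0.342% of Nu-NB, against 3.04% (1.67 to 5.04%), 0.977% and 0.0% (0 of 13 cells, upper limit 24.7%) of endothelial-type cells, and the intervals of both cell types overlapped in P13. The 22 cell cycle genes summed to 2193 CPM in P13 and 759 CPM in Nu-NB, with 458 to 1797 CPM in the other PDOXs.

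A few cells carried most of one abundant transcript that microglia are not known for. In 16 homeostatic cells Ttr took over 5% of UMIs (7 in T16, 6 in P13 and 1 each in T192, P3 and P3TMZ), and they held 14702 of the 15732 Ttr UMIs of all homeostatic cells. Without them, Cxcl13 and Hbb-bs were still the genes called between PDOX and Nu-NB.

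The checkpoint gene Vsir (VISTA) was at 1048 CPM in Nu-NB and 269.5 to 838.7 CPM in the PDOXs, and Lgals9 (galectin-9) at 104.3 and 189.2 to 457.9 CPM. Neither passed the test (FDR 0.201 and 0.218), and both separated all 7 PDOXs from Nu-NB.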
